A study of Rattus norvegicus with 4 samples.

Results

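The 10 genes described here encode lectin receptors of macrophages and galectin-3. They are the C-type lectin receptor genes Clec7a, Clec4d, Clec4e, Clec5a, Clec10a, Clec12a and Mrc1, the sialic acid receptor genes Siglec1 and Siglec5, and the galectin gene Lgals3. They were taken as the non-control probes whose RefSeq accession carries one of these rat symbols. All 10 were measured, among 16581 named genes. NR8383 is a line of alveolar macrophages, obtained by washing a normal rat's lung, and the series compared it with and without NRCWE049, carbon nanotubes that carry amino groups. The 4 samples used here were all exposed to NRCWE049 at 1.2 cm²/cm² for 4 h, after 48 h in culture and at 20 passages, and are called replicates 1 to 4. They are biological replicates of 1 cell line, per the series' design text. Unexposed cells were not analysed here, so no value below shows what the nanotubes changed.

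Lectins are proteins that bind sugars, and macrophages carry many of them on their surface. Dectin-1, the product of Clec7a, binds beta-glucans of fungal walls and signals through its own tail to the kinase Syk and the adaptor Card9. Mincle (Clec4e), MCL (Clec4d) and MDL-1 (Clec5a) lack such a tail and pair with the adaptors Fcer1g or Tyrobp, whereas Clec12a carries an inhibitory motif that recruits phosphatases. The mannose receptor (Mrc1) and the galactose receptor (Clec10a) take up glycoproteins, Siglecs bind sialic acids, and galectin-3 is a soluble lectin that also gathers on damaged lysosomes.

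Total RNA was measured on one-colour Agilent arrays. A gene counted as detected where the scanner software marked a probe of it as well above background on 4 of 4 arrays. The level is the processed signal on the log2 scale after subtraction of an array's 75th percentile, taken over probes detected on every array, so 0 is a fairly bright spot. Levels follow 1 gene between replicates and are not set against those of another gene, because probes differ in brightness. The 4 arrays lay on 1 slide with 1 scan start, which leaves no batch of slide or scan to test, and their number limits the precision. They detected between 19143 and 19311 of 45598 probes, no spot was saturated, and the lowest signal that counted as well above background was 16.6 to 20.1.

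Most of the lectin receptor genes were expressed in the exposed macrophages. Clec7a, Clec5a, Clec12a, Mrc1, Siglec1, Siglec5 and Lgals3 were detected, which is 7 of 10, where 52.5% of all named genes were. Clec4d, Clec4e and Clec10a were well above background on no array, which held for 42.0% of all named genes. The genes were chosen with earlier results of these data known, so the share carries no test. No member lay between these states, since each was detected on all arrays or on none. There were 14 probes for the 10 genes, and 6 genes had 1 probe. Of these probes, 9 passed on every array, where 39.3% of all probes on the arrays did. Asking for 3 or more arrays (53.9% of all named genes) or for any array (58.0%) left the count at 7.

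**Figure D1:**
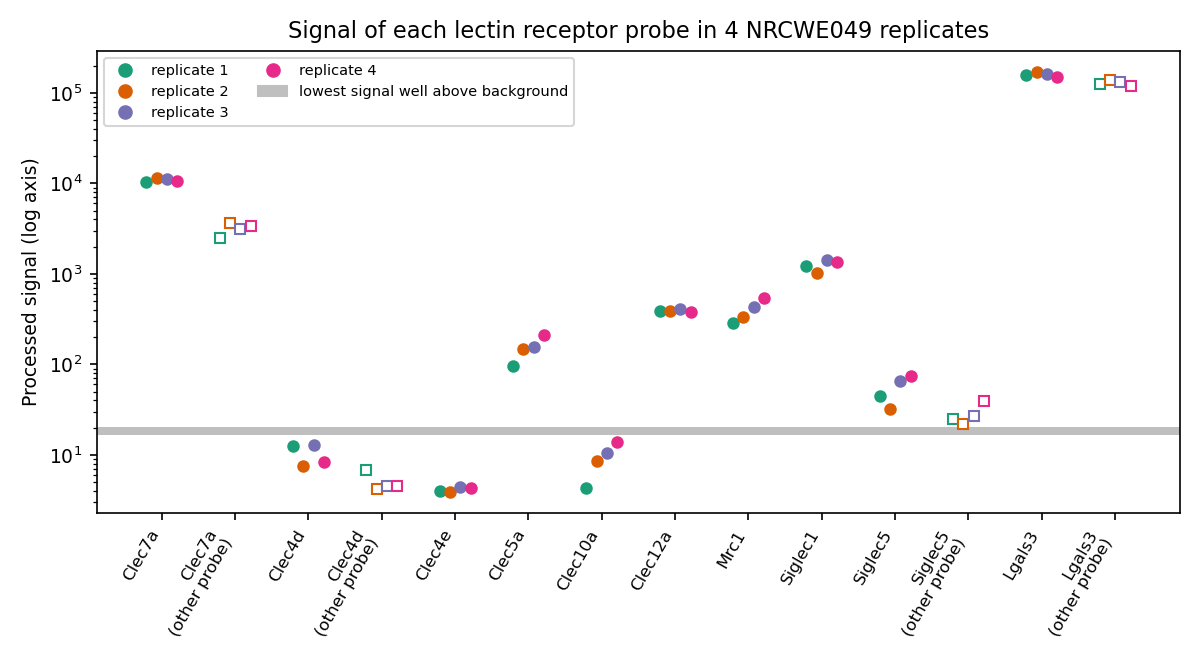
Processed signal (log axis) of each lectin receptor probe in the 4 NRCWE049 replicates, with 1 point per replicate, filled for the probe that gives the gene's level and open for a further probe. The probes of Clec4d, Clec4e and Clec10a lie below the grey band, which spans the lowest signals marked well above background on each array (16.6 to 20.1).

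Among the receptors that signal through Syk, the Dectin-1 gene Clec7a gave a strong signal. Its probe with 2 spots per array read 10256, 11386, 11121 and 10692 in replicates 1 to 4. These correspond to levels of 2.38, 2.52, 2.16 and 2.15, a mean of 2.30 ± 0.18 (SD, n = 4). The highest replicate was 1.29 times the lowest, and the 2 spots on an array had log2 SDs of 0.116 to 0.163. A further Clec7a probe read 2479, 3685, 3121 and 3406, levels of 0.33, 0.90, 0.32 and 0.50. Replicate 2 was highest by both probes, while replicate 4 was lowest by the first and replicate 3 by the second.

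The genes of Mincle and MCL, which form a receptor pair for mycobacterial glycolipids, stayed in the background. Clec4e read 3.94, 3.90, 4.38 and 4.31 in replicates 1 to 4, at 21.4% to 23.7% of the lowest signal that counted as well above background on each array. The brighter of 2 Clec4d probes read 12.4, 7.62, 13.0 and 8.40, and the other read 6.79, 4.14, 4.52 and 4.56. Neither gene was marked on any array, and their signals say only that no transcript stood well above background by these probes. Under the scanner's looser mark for a positive and significant signal, which 61.7% of all named genes carried on 4 of 4 arrays, Clec4d counted as detected and Clec4e did not. The scanner's own error estimate was 37.2% to 62.0% of the signal for the brighter Clec4d probe and 100.3% to 100.6% for Clec4e.

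Clec5a, whose product MDL-1 pairs with the adaptor DAP12 encoded by Tyrobp, was detected at a modest and uneven signal. It read 95.2, 149, 157 and 213 in replicates 1 to 4, levels of -4.37, -3.73, -3.99 and -3.50 with a mean of -3.90 ± 0.37 (SD, n = 4). Replicate 1 was lowest and replicate 4 highest, at 1.83 times the lowest. The single Clec5a spot of replicate 1 lay in an area where that array was dim. The 48 detected spots within 5 rows and columns had a median log2 deviation of -0.63 there from the median of the other arrays, against -0.64 for Clec5a itself. In replicates 2 to 4 that median was 0.07, 0.07 and 0.01. Without replicate 1 the SD of Clec5a was 0.25, and with dim areas left out Clec5a had no value on that array and no longer counted as detected on all 4.

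Clec12a, an inhibitory receptor that in mice and humans senses uric acid crystals of dead cells, was detected at a moderate signal. It read 391, 386, 413 and 377 in replicates 1 to 4. Its levels of -2.33, -2.36, -2.59 and -2.67 gave a mean of -2.49 ± 0.17 (SD, n = 4). Replicates 1 and 2 were therefore above replicates 3 and 4 on the scaled values, by at most 1.27 times, and this order depended on the scaling.

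Of the endocytic receptors, the mannose receptor gene was detected and the galactose receptor gene was not. Mrc1 read 288, 334, 429 and 548 in replicates 1 to 4, levels of -2.78, -2.57, -2.54 and -2.13 with a mean of -2.50 ± 0.27 (SD, n = 4). Replicate 4 stood highest, at 1.56 times replicate 1. Without replicate 4 the SD was 0.13. Clec10a, which is read by 1 probe, gave 4.29, 8.55, 10.6 and 13.8, or 25.8%, 47.6%, 52.7% and 68.3% of the lowest signal well above background on the same array. Its signals had scanner errors of 42.4% to 101%, so they hold no usable order between replicates. Clec10a carried the looser mark for a positive and significant signal in replicates 2, 3 and 4 but not in replicate 1.

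Both Siglec genes were detected. Siglec1 encodes sialoadhesin, a macrophage receptor for sialylated cells and particles. It read 1232, 1022, 1426 and 1343 in replicates 1 to 4, levels of -0.68, -0.95, -0.81 and -0.84 with a mean of -0.82 ± 0.11 (SD, n = 4). The highest replicate was 1.21 times the lowest, and this ratio was 1.09 with normexp background correction and 1.34 with median scaling. Of the 7, Siglec5 lay least far above the lowest signal marked well above background. Its brighter probe read 45.1, 32.2, 65.8 and 74.2, which is 272%, 179%, 327% and 368% of the lowest signal well above background. Its levels of -5.45, -5.94, -5.24 and -5.02 averaged -5.41 ± 0.40 (SD, n = 4). Replicate 2 was lowest and replicate 4 highest, 1.90 times apart, and without replicate 2 the SD was 0.21. This ratio was 1.26 with normexp background correction and 2.29 with median scaling. The second Siglec5 probe read 25.2, 21.7, 26.7 and 39.0 and was marked on 3 of 4 arrays. In replicate 2 it was not marked, though it read 121% of that array's lowest marked signal, so this lowest signal is not a cutoff. By the stricter rule that all probes of a gene be detected, which 47.7% of all named genes met, Siglec5 was therefore lost.

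Lgals3, the galectin-3 gene, is the member with the most measurements, because 1 of its 2 probes is printed 10 times per array. The single-spot probe, which gives the gene's level here, read 156510, 171240, 162221 and 150161 in replicates 1 to 4. Its levels were 6.31, 6.43, 6.02 and 5.97, a mean of 6.18 ± 0.23 (SD, n = 4), with replicate 2 highest at 1.38 times replicate 4. The repeated probe gave levels of 5.99, 6.12, 5.72 and 5.62 (5.86 ± 0.23, SD, n = 4), the same order of replicates from highest to lowest. Its spots on an array were close, with log2 SDs of 0.070, 0.058, 0.065 and 0.075 in replicates 1 to 4 after outlier spots were left out. These cover spots of 1 sample only. With quantile normalization the SD of the single-spot probe between arrays was 0.049. That method gives equal ranks the same value on every array, so it can itself narrow the spread of a bright probe.

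One repeated Lgals3 spot stood apart in replicate 1. This spot of the 10 read 40407, where the 8 spots that were kept ran from 117860 to 136323. The software marked it as an outlier, and it lay in a dim area whose 47 neighbouring detected spots had a median log2 deviation of -0.65, against -1.50 for the spot itself. The same position read 145918, 144880 and 126431 in replicates 2 to 4, where it was the brightest of the 10 and was marked as an outlier too. The part of the dim area in its low signal was not tested. Outlier spots were left out of the levels.

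**Figure D2:**
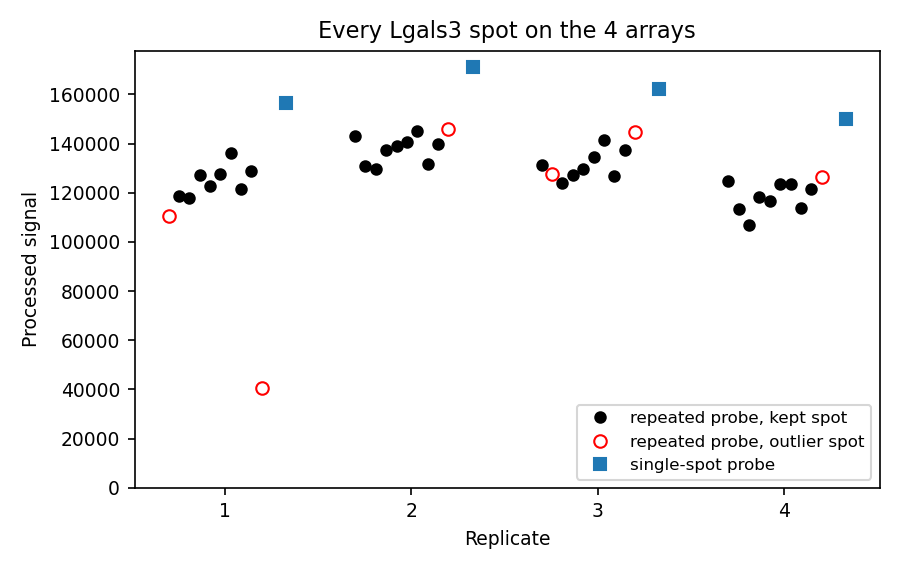
Processed signal (axis from 0) of every Lgals3 spot in replicates 1 to 4, with black points for kept spots of the probe printed 10 times, open red points for its spots marked as outliers, and blue squares for the single-spot probe. One spot of replicate 1 stands at 40407, below every other spot of the repeated probe, the lowest of which in replicate 4 read 106728.

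The 7 detected genes had SDs between replicates from 0.114 for Siglec1 to 0.395 for Siglec5. Their median SD was 0.225, against 0.151 over all 8713 detected genes, and 6 of 7 had an SD above the all-gene median, which by definition 50.0% of the genes have. These SDs are not adjusted for brightness, and that of Clec5a includes a replicate 1 spot in a dim area. With dim areas left out, which drops Clec5a, the median SDs were 0.199 for the members and 0.149 for all genes. Each variance was also set against that expected at its brightness, as fitted over all detected genes with limma. By this F test none of the 7 was called (adjusted p from 0.969 to 0.986, limma, Benjamini-Hochberg over all detected genes), where 0.0115% of the tested genes passed, which is 1 gene, Selenop, named after its value was seen. The lowest unadjusted p-values were 0.105 for Clec5a and 0.136 for Lgals3, none was under 0.05, and 4.30% of all tested genes were. This test could call only very large spreads with 4 arrays. A single gene needed an SD of 13.5 times that expected at its level to pass the adjusted threshold, and 2.23 times to reach an unadjusted p of 0.05. The 7 genes had 0.843 to 1.82 times the expected SD, and Selenop had 14.2 times. The absence of calls therefore does not show that the replicates were alike.

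**Figure D3:**
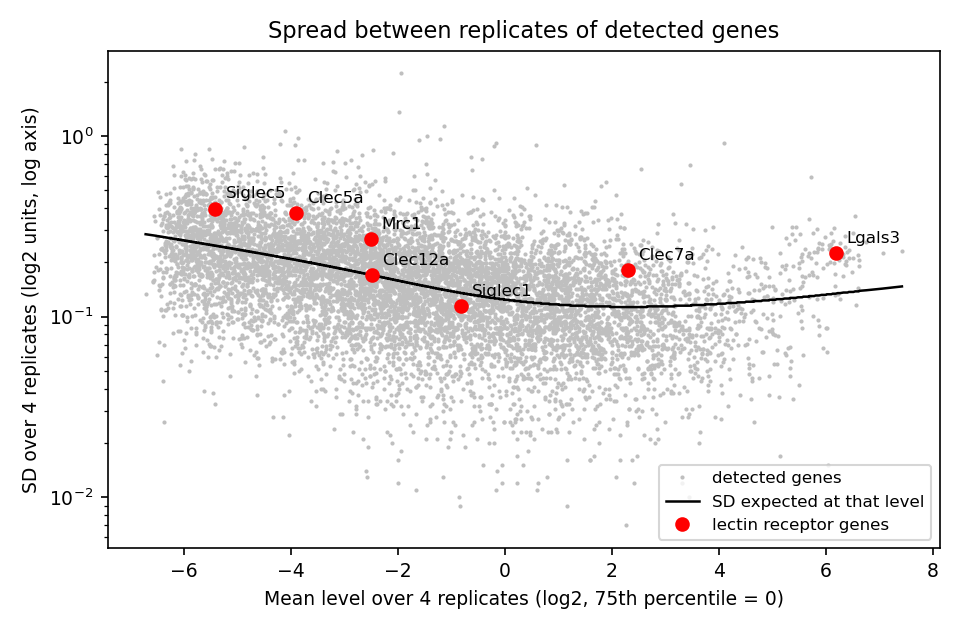
SD over the 4 replicates (log2 units, log axis) against mean level (log2, 75th percentile at 0) for 8713 detected genes in grey and the 7 detected lectin receptor genes in red, with the black line at the SD that limma expects at each level. Siglec5 (0.40), Clec5a (0.37), Mrc1 (0.27), Lgals3 (0.23) and Clec7a (0.18) lie above the line. Clec12a (0.17) lies about on it, and Siglec1 (0.11) lies below it.

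The receptors did not share 1 pattern over the replicates. Clec5a, Mrc1 and Siglec5 were highest in replicate 4, at log2 deviations of 0.40, 0.37 and 0.40 from their own means. This held under each of the scalings and background corrections run, apart from leaving out dim areas for Clec5a, which had no value then. The Clec5a mean of -3.90 includes replicate 1, whose spot lay in a dim area, and was -3.70 without that replicate. On the scaled values, replicates 3 and 4 gave the lower levels of Clec7a and Lgals3. Their deviations were -0.15 and -0.15 for Clec7a and -0.16 and -0.22 for Lgals3. The further Clec7a probe did not repeat this order, at levels of 0.33, 0.90, 0.32 and 0.50 in replicates 1 to 4. Before scaling, Clec7a was lowest in replicate 1 (10256), and Lgals3 read 162221 in replicate 3 against 156510 in replicate 1. The ratio of the highest to the lowest replicate of Lgals3 was 1.08 with quantile normalization instead of 1.38, and that of Clec7a was 1.07 with scaling by the median over all probes instead of 1.29. Clec12a had its 2 higher replicates mixed with the lower ones under median scaling. That scaling moved the median of all detected genes by -0.06, -0.17, 0.11 and 0.11 in replicates 1 to 4, so its deviations are to be read against these shifts.

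**Figure D4:**
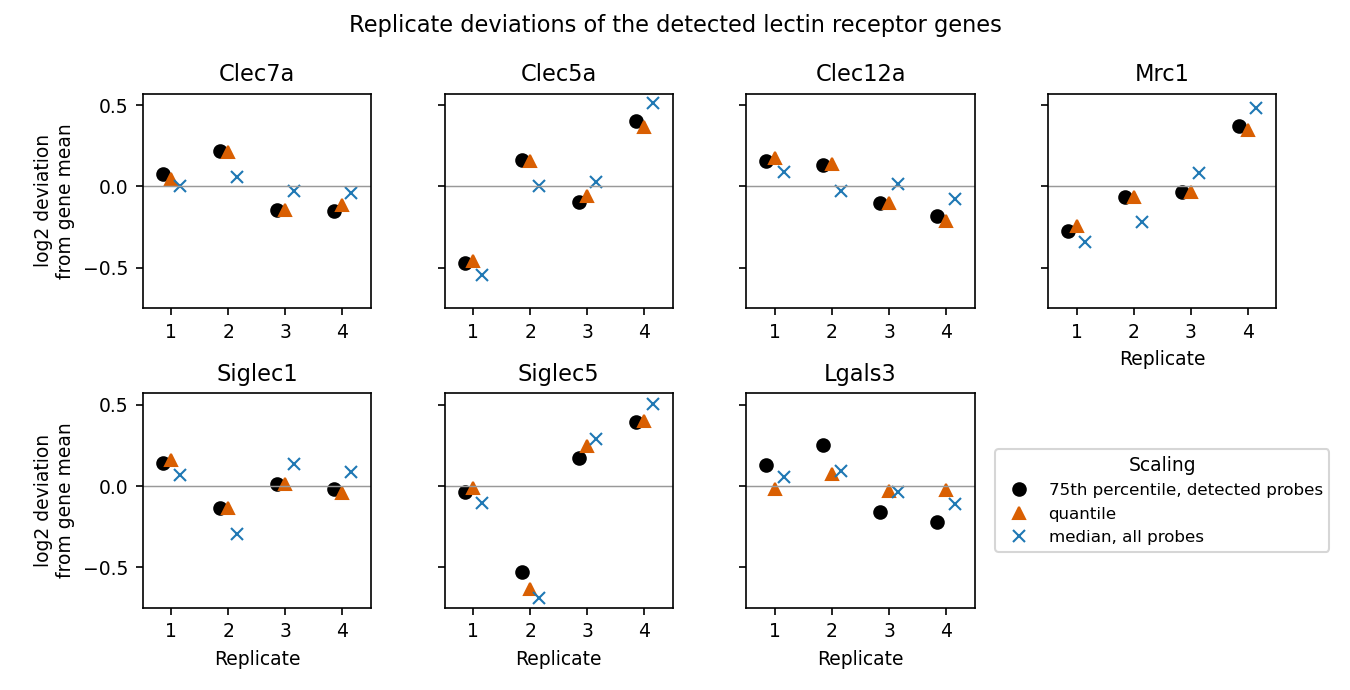
Log2 deviation of each replicate from the gene's mean for the 7 detected lectin receptor genes, 1 panel per gene, under the 75th percentile scaling used here (black circles), quantile normalization (orange triangles) and median scaling over all probes (blue crosses). Clec5a, Mrc1 and Siglec5 are highest in replicate 4 under all 3 scalings, and the spread of Lgals3 and Clec7a depends on the scaling.

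Most measured genes of the pathways that these receptors signal through were detected, beside 52.5% of all named genes, and these counts carry no test. Of 13 measured adaptors and kinases of activating receptors, 12 were detected, among them the kinase gene Syk (-0.17 ± 0.18, SD, n = 4) and the adaptor genes Fcer1g (4.83 ± 0.10) and Tyrobp (5.70 ± 0.17). The exception was Src. All 7 measured genes of the Card9 branch were detected, including Card9 (0.45 ± 0.17) and Bcl10 (-0.55 ± 0.31), and Malt1 and Trim62 were not measured. All 4 phosphatase genes that act on inhibitory receptors were detected, with Ptpn6, which encodes SHP-1, at 5.14 ± 0.02, Ptpn11 at 0.07 ± 0.39 and Inpp5d at 0.16 ± 0.08. The adaptor of Clec4e was therefore detected while Clec4e was not, and the adaptor and the receptor were both detected for Clec5a.

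Of 12 genes that activating lectin receptors are known to induce, 5 were detected (41.7%, beside 52.5% of all named genes). They were Tnf (1.46 ± 0.37, SD, n = 4), Il1b (1.42 ± 0.28), Cxcl2 (-0.12 ± 0.45), Egr2 (-3.18 ± 0.50) and the transcription factor gene Nfatc1 (1.77 ± 0.14). The cytokine genes Il6, Il10, Il23a, Il12b and Csf2 and the prostaglandin synthase gene Ptgs2 were well above background on no array, and Egr3 was on 2. Many other receptors induce these genes too. Of 14 measured partners and ligands, 12 were detected, including the tetraspanin gene Cd63 (4.22 ± 0.05). Tlr2, whose product works with Dectin-1, was at -1.54, 0.17, 0.35 and 0.33 in replicates 1 to 4 (-0.17 ± 0.91), and its single spot of replicate 1, the low one, lay in a dim area. The tetraspanin gene Cd37, whose product binds Dectin-1, and Trim16, whose product works with galectin-3 at damaged lysosomes, were well above background on no array. No gene of these lists passed the variation test over all genes, the lowest adjusted p being 0.233 (limma) for Tlr2.

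Among relatives of the lectin receptors outside the set of 10, the share detected was low for the other C-type lectin genes. Of 43 measured other C-type lectin genes, 9 (20.9%) were detected, against 52.5% of all named genes, and 32 were well above background on no array. Clec1a and Clec1b were among these 32, and Clec2d was detected (-3.66 ± 0.14, SD, n = 4). Of 6 other Siglec genes listed, only 3 were measured, too few for a share to be read. Mag (-3.74 ± 0.38) and Siglec15 were detected (66.7%) and Cd22 was not. Of 9 other galectin genes, 5 were detected (55.6%), close to the share of all named genes. They included Lgals1 (2.86 ± 0.05), and Lgals2, Lgals4, Lgals7 and Lgals9 were not detected. These lists hold genes of many tissues.

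Several of the C-type lectin genes sit side by side on chromosome 4, and both detected and undetected genes lay among them. The following genes were named after their values were seen. Around Clec4e, the genes Clec4a1 (1.15 ± 0.12, SD, n = 4), Clec4a3 (0.05 ± 0.25) and Clec4a2 (-2.26 ± 0.31) follow one another and were all detected. The next 4 genes in order, Clec4a, Clec4b2, Clec4d and Clec4e, were each well above background on no array. Around Clec7a, the order is Clec12a, Clec12b, Clec1b, Clec9a, Clec1a, Clec7a and Olr1, with 1 unmeasured gene after Clec12a. Clec12a, Clec7a and the oxidised lipid receptor gene Olr1 (-1.51 ± 0.40) were detected, Clec12b was on 1 array, and the other 3 were on none. The natural killer receptor genes beyond them were on none either. Of the 16 nearest protein-coding genes of Clec4e, all measured, 6 were detected, and of the 15 measured near Clec7a, 3 were, where 52.5% of all named genes were. The gene order comes from the GRCr8 table, and the probe sequences of these related genes were not used here, so reads of one gene by another gene's probe were not checked.

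**Figure D5:**
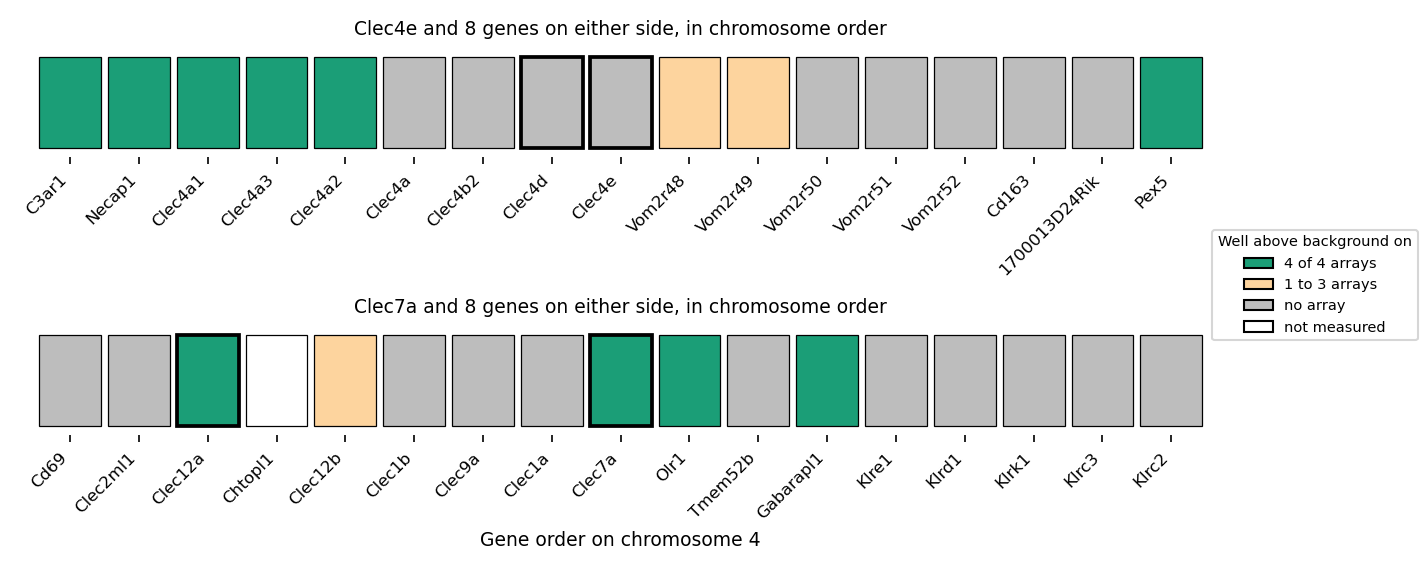
Clec4e (top) and Clec7a (bottom) with 8 protein-coding genes on either side in their order on chromosome 4, 1 box per gene, coloured by whether it was well above background on 4 arrays (green), 1 to 3 arrays (orange) or no array (grey), with white for unmeasured genes and thick frames for genes of the set of 10. Clec4d and Clec4e lie in a grey run beside the green Clec4a1, Clec4a3 and Clec4a2.

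The promoters of 5 of the C-type lectin genes on chromosome 4 are printed so that 3 genes that were detected and 2 that were not can be read side by side. RefSeq sequences of the GRCr8 build, from 250 bases before to 50 bases after the gene's start, were matched for 7 of the 10 genes, and not for Clec10a, Siglec1 and Lgals3. Capitals mark AGGAAG on either strand, a version of the letters bound by PU.1, the myeloid factor encoded by Spi1. Other versions are not marked. Clec7a is at chr4:164599778-164600077 on the minus strand, Clec12a at chr4:164483912-164484211 on the plus strand and Clec5a at chr4:70383457-70383756 on the minus strand, and these 3 were detected. Clec4d is at chr4:158275093-158275392 on the plus strand and Clec4e at chr4:158298418-158298717 on the minus strand, and these were not. The sequences read 5′ to 3′ along the gene.
Clec7a: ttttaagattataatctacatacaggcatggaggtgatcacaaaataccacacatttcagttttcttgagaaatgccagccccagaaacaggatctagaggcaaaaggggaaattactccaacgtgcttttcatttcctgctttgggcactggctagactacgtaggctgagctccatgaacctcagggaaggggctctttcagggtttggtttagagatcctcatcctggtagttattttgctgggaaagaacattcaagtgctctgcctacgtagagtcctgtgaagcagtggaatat
Clec12a: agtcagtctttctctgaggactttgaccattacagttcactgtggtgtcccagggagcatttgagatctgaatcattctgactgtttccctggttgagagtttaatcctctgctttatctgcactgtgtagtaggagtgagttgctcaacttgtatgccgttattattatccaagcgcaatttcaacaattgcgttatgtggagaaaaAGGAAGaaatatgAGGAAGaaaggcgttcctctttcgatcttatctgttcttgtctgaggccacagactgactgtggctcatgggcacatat
Clec5a: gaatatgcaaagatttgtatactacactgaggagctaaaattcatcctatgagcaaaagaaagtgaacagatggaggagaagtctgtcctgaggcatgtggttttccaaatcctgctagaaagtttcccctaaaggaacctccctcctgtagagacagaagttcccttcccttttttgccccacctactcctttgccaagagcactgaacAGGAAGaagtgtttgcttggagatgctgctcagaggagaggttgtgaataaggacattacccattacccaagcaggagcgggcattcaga
Clec4d: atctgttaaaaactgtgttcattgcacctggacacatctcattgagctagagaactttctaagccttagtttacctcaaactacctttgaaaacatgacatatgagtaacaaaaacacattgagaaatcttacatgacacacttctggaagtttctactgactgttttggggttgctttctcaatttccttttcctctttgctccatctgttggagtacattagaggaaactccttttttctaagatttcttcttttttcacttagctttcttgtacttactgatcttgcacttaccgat
Clec4e: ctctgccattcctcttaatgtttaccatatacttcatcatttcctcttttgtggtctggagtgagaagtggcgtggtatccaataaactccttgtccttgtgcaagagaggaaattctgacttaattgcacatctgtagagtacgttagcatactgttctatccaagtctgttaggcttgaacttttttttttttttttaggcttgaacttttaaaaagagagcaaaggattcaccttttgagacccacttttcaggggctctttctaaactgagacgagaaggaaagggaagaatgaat

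The version AGGAAG was found in 4 of the 7 promoters, those of Clec12a, Clec5a, Mrc1 and Siglec5, and 34.5% of all 33469 promoters of this length hold it. It began 42 and 29 bases before the start in Clec12a, 40 bases before it in Clec5a, and 210 and 36 bases before it in Mrc1. In Siglec5 it began 169 and 67 bases before the start. All 4 genes were detected, but so was Clec7a, whose window lacks AGGAAG, as do those of Clec4d and Clec4e. Other versions of the PU.1 letters were not searched, so a window without AGGAAG may still hold one. The C/EBP letters TTGCNNAA were in Clec12a and Clec4e (10.6% of all promoters) and the AP-1 letters TGANTCA in Clec12a alone of the 7 (7.33%), each searched on both strands. The NF-kB motif (1.53%) and the box TATAAA (14.2%) were in none of the 7, and no matches overlapped. A match is a description of letters, and nothing about binding was measured.

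Markers of the labelled macrophage type were set beside those of other cell types, and 52.5% of all named genes were detected. Of 11 measured macrophage markers, 9 were detected, including Cd68 (3.04 ± 0.09, SD, n = 4), Csf1r (-1.28 ± 0.13) and Spi1 (0.89 ± 0.19), and the exceptions were Marco, a scavenger receptor gene of alveolar macrophages, on no array and Cybb on 1. C-type lectins are also made by dendritic cells and neutrophils. Of 4 dendritic cell markers, Batf3 (-1.03 ± 0.05) was detected and Zbtb46, Xcr1 and Ccr7 were on no array. Of 5 neutrophil and monocyte markers S100a8 (-5.14 ± 0.48) was detected, of 4 lymphocyte markers Cd3d (-4.78 ± 0.14), and of 8 markers of epithelium, fibroblasts and endothelium Cdh5 (-5.02 ± 0.17). Their part in the lectin values was not tested. In bulk RNA, fewer cells with a transcript and less of it per cell cannot be told apart.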

How the data were processed

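Total RNA of integrity above 7.5 (100 ng labelled with Cy3), from 4 samples of 1 exposed group, was hybridised to one-colour Agilent arrays, per the labels' protocols. The deposited intensity of a spot is its processed signal, which Feature Extraction corrects for background, per the file headers, which name the build rn4. The submitters' processing notes give version 11.0.1.1. How the authors normalized between arrays is not stated in the labels or headers used here.

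Spots marked as nonuniform or population outliers and 4259 control spots of 62976 were left out, and the remaining spots of each probe were averaged as log2 values. A probe was detected on an array where over 0.5 of its spots were marked well above background. Only 39.3% of probes passed on every array, so the 75th percentile was taken over these. Its signals were 1970, 1980, 2493 and 2402.5 for the 4 arrays in replicate order. Accessions without versions named 21109 of 45598 probes through RefSeq's gene annotation of GRCr8. A gene's level came from its brightest probe, detected ones first.

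Residual variances of an intercept fit (limma 3.58.1, R 4.3.3, eBayes with intensity trend) were tested by an F test against the expected variance, adjusted over 8713 genes at 0.05. Tested on simulated data, it called no gene with the expected spread but missed nearly all genes whose SD was several times that expected, so its lack of calls is weak information. The simulated spreads scattered less about the expected one than those fitted to the data, so the simulated rates need not hold here. Each array was split into 12 by 10 blocks, and a dim area is a block in which over 5% of spots, and at least 5, lay 1 log2 unit or more below the median of the other arrays. Files were read with version 1.17.8 of data.table, and figures made in Python 3.11.15 (matplotlib 3.10.9). The members, lists and alternatives were chosen with earlier results of these data known. Named genes are all 10 members, the first 3 of each other list, and up to 5 genes per list that were detected where most were not, or the reverse.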

Additional observations from a re-analysis of the deposited data

Results flagged for a closer look

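Of 35 sets of 4 levels, 2 had 1 replicate far from the other 3 by the ratio of the gap to the range, where about 1.75 would be met by chance (1 in 20). None of the 7 detected lectin receptor genes was among them. Ptpn11, the SHP-2 gene, was low in replicate 1 (ratio 0.963), at -0.51 against 0.28, 0.27 and 0.25 in replicates 2 to 4. A second Ptpn11 probe was at -3.73, -3.44, -3.58 and -3.72, so it did not set replicate 1 apart. Tlr2 was low in replicate 1 (ratio 0.9052), at -1.54 against 0.17, 0.35 and 0.33, and its single spot there lay in a dim area.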

How the results depend on the processing

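Between 6 and 8 of the 10 genes were detected under the 10 alternatives, where 47.7% to 61.7% of all named genes were. Clec4d was gained with the mark for positive and significant signal (61.7% of all named genes). Siglec5 was lost when all probes of a gene had to be detected (47.7%), and Clec5a was lost with dim areas left out (51.2%). Leaving out any 1 replicate gave 7 (52.7% to 53.0%). The median SD of the detected members, 0.225, ran from 0.181 to 0.237 with other scalings, background correction, probe rules and spot filters, and from 0.188 to 0.247 without 1 replicate. No member passed the variation test (limma), which calls only very large spreads, under any of its 14 alternatives, and Siglec5 alone had an unadjusted p under 0.05, with median scaling. Over all genes the test called 1 gene. It called 4 with outlier spots kept, 9 with the 75th percentile over all probes and 11 with the median over all probes. It called 0 with dim areas left out (384 at an unadjusted p under 0.05), quantile normalization (349), no filter on detection (915), no intensity trend (349) and robust empirical Bayes (369), and 0 to 9 without 1 replicate. The cause was not tested. Of 76 member levels under alternatives, 18 moved by more than 1 SD, 14 of them with a percentile or median over all probes, which shifts every level alike. The normexp alternative used the median spot signal. No paired analysis was possible because the samples form 1 group.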
